A study of Homo sapiens with 6 samples.

Results

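The genes described here are 43 human genes of the lysosome and of its acidification: 5 V0 and 8 V1 subunits of the vacuolar H+-ATPase (V-ATPase), 2 V-ATPase accessory proteins, 5 lysosomal membrane proteins, 5 cathepsins, 6 glycosidases, 3 other luminal proteins, the autophagy receptor SQSTM1, 5 genes of lysosomal nutrient sensing and 3 transcription factors of the MiT/TFE family. They were chosen by name, out of 19785 protein-coding genes, and each was asked for a Myc peak whose summit lay within 1 kb of one of its annotated transcription start sites (a promoter peak). Myc was immunoprecipitated with the antibody D3N8F from MDA-MB-231, an established human triple-negative breast cancer line, in 2 libraries of parental cells and 2 of TKO cells, in which TXNIP was knocked out by CRISPR/Cas9. TKO cells were grown from single-cell clones, so clone and genotype cannot be told apart. TXNIP is an arrestin-family protein that restrains glucose uptake. The files hold called peaks and no expression, so they do not show the level of TXNIP, of Myc or of any transcript, and the labels do not say whether replicates came from separate cultures. The 2 input samples were not analysed here.

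The V-ATPase is a rotary proton pump. Its V1 sector in the cytosol hydrolyses ATP and its V0 sector in the membrane carries protons into the lysosome, where the low pH activates cathepsins, glycosidases and other hydrolases. Many of these genes are known targets of the MiT/TFE factors TFEB, TFE3 and MITF, which bind an E-box, CACGTG, preferably with a T in front of it, as in the CLEAR element of lysosomal promoters. Myc, with its partner Max, binds the same 6 letters, and is known to disfavour a T in that flanking position.

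Promoter stretches of 6 genes show what this flank looks like at genes with a called Myc promoter peak. The GAA stretch lay outside both GAA peaks. They are reference sequence of GRCh37 (the build called hg19 in the labels), read 5' to 3' on the strand of the gene and ending upstream of the canonical start of GENCODE, with CACGTG in capitals together with a T before it or an A after it (a T on the other strand). LAMP1 and CTSA were the 2 genes with an E-box within 50 bp of the summit in both TKO libraries. The other 4 were chosen after their values were seen, MCOLN1, GAA and ATP6V0B as membrane, glycosidase and V-ATPase genes with T-flanked boxes, and CD63 as the gene with an unflanked box. Stretches that run into an annotated first exon are kept to 30 bases there.
LAMP1, chr13:113951339-113951553, plus strand: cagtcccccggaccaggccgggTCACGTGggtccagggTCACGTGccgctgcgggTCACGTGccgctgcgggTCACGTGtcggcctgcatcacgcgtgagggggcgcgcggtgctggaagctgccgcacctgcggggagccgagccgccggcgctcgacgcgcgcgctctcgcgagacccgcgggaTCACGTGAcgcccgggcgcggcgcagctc
CTSA, chr20:44519928-44519957, plus strand: ctgTCACGTGgcgccggagtTCACGTGAct
MCOLN1, chr19:7587400-7587509, plus strand: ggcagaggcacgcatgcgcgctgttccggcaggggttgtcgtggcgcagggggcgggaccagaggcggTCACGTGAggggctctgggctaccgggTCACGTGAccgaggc
GAA, chr17:78075270-78075379, plus strand: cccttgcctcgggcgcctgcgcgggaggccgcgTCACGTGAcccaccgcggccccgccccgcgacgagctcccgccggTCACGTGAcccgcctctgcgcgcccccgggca
ATP6V0B, chr1:44440522-44440631, plus strand: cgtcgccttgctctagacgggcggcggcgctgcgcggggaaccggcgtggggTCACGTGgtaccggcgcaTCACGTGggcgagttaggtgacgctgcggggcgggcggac
CD63, chr12:56122956-56122985, minus strand: ccgggtaggggcCACGTGgccctggccggg

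The LAMP1 stretch holds 5 E-boxes, 4 of them in a row, and every one has a T flank. CD63 has a single box with C and G on its sides. None of the 4 parental and TKO summits of CD63 lay further than 107 bp from it.

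Almost all of these genes had a Myc promoter peak in TKO cells and almost none had one in parental cells. A promoter peak was called at 2 and 3 of the 43 genes in parental replicates 1 and 2, and at 36 and 37 of the 43 in TKO replicates 1 and 2. Over all 19785 protein-coding genes the same rule called 12.2% and 12.9% in the parental libraries and 49.1% and 49.7% in the TKO libraries. Of the 43 genes, the parental libraries thus held 4.65% and 6.98%. The TKO libraries held 83.7% and 86.0%, above the level of all genes, which were not matched by number of starts. The exact 95% binomial (Clopper-Pearson) intervals of these shares, which cover the counting of genes only, were 0.568% to 15.8%, 1.46% to 19.1%, 69.3% to 93.2% and 72.1% to 94.7%, and those of the parental libraries include the level of all genes. With the starts of every annotated transcript, 6 and 6 of the 43 genes were bound in the parental libraries (14.0% in each, beside 13.1% and 14.0% of all genes) and 37 and 37 in the TKO libraries, with ATP6V0A1, CTSD and SQSTM1 added in both parental libraries and ATP6V1A in replicate 1. The parental shares thus do not stand below those of all genes under both sets of starts. The added parental peaks of ATP6V0A1 lay at a distant start, as the nearest parental summits were 59314 and 59325 bp from the starts first used. The starts first used numbered from 1 at LAMP1 to 28 at CTSB among the 43 genes, and 55869 over all 19785 genes. A gene with more starts has more places for a peak, and the part of this in the TKO shares was not tested. The mean difference was 34.0 genes, against a largest SD within a cell line of 0.707 genes (n = 2 libraries each). The exact two-sided permutation test over libraries gave p = 0.333, the smallest p that 2 against 2 allows, so no threshold of 0.05 could be reached.

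**Figure D1:**
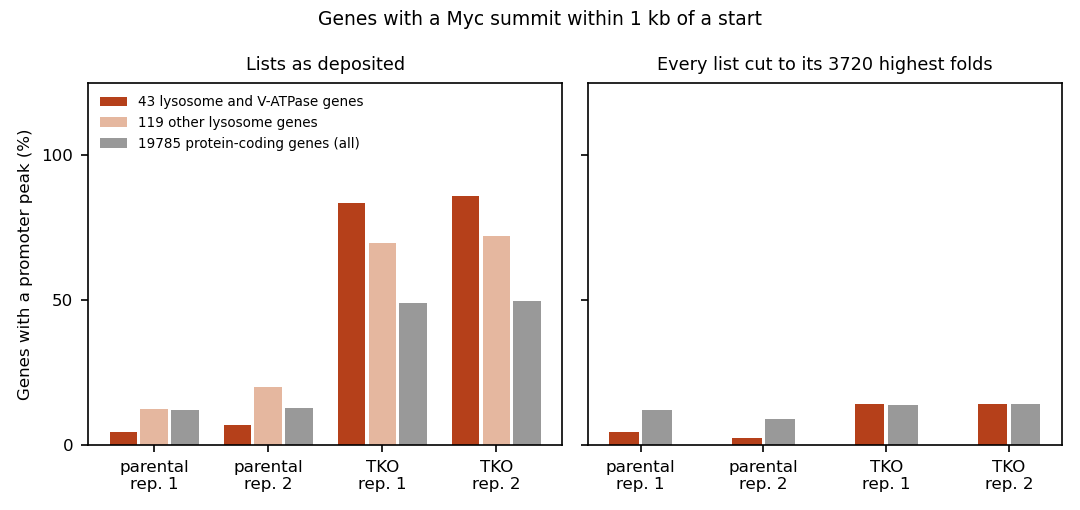
Percent of genes with a Myc summit within 1 kb of a start (vertical axis) in each of the 4 libraries, for the 43 lysosome and V-ATPase genes, 119 other lysosome genes and all 19785 protein-coding genes. On the left, with lists as deposited, the 43 genes stand lowest in parental and highest in TKO libraries. On the right, with every list cut to its 3720 highest folds, 14.0% of the 43 genes remained in each TKO library, beside 13.9% and 14.3% of all genes.

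The lists behind these counts differ in length. Parental replicates 1 and 2 held 3720 and 5719 peaks, and TKO replicates 1 and 2 held 27213 and 25887, although the depth recovered from the files was 26400000 and 22200000 reads in parental and 19900000 and 13000000 reads in TKO libraries. When every list was cut to its 3720 highest folds, 2 and 1 of the 43 genes were left in the parental libraries and 6 and 6 in the TKO libraries, a difference of 4.50 genes. ATP6V0A1, CD63, GUSB and HEXA were in both cut TKO lists, ATP6V1D and FLCN in that of replicate 1 and ATP6V0B and CTSZ in that of replicate 2. Most of the promoter peaks that these genes had in TKO cells therefore lay outside the strongest 3720 of their library. The absence of a peak says that none passed the caller's threshold, not that Myc was absent. The promoter peaks of the parental lists reached down to a fold of 2.60 and 2.53.

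Of the 43 genes, 33 had a promoter peak in both TKO libraries (76.7%, against 45.2% of all genes, again not matched by number of starts). Of these 33, 30 had none in either parental library (90.9%), where the share over all genes bound in both TKO libraries was 65.8%. With the starts of every annotated transcript, ATP6V0A1 and CTSD, among these 30, had a peak in both parental libraries and ATP6V1A in replicate 1. Under the rule used throughout, ATP6V1D and CD63 were the 2 genes bound in all 4 libraries. CTSA was bound in parental replicate 2 and both TKO libraries. Another 7 genes had a peak in 1 TKO library only: GLA, NPC2 and MITF in replicate 1, and ATP6V1E1, ATP6AP1, LAMP2 and SQSTM1 in replicate 2. ATP6V0C, ATP6V1B2 and ATP6AP2 had none in any library.

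**Figure D2:**
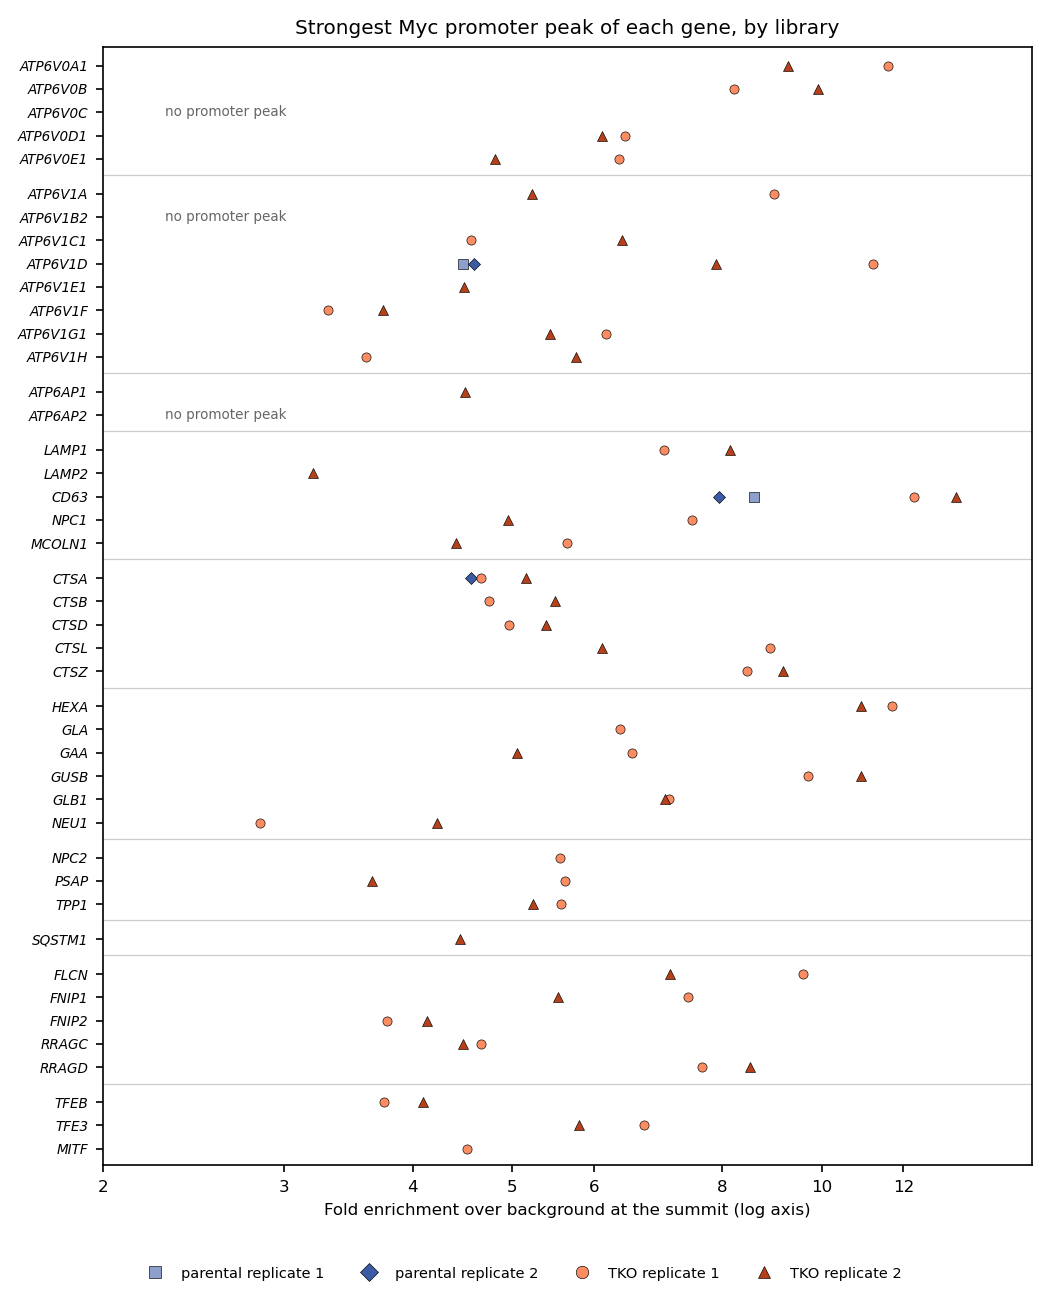
Fold enrichment at the summit of the strongest promoter peak (horizontal log axis) of each of the 43 genes, grouped by role from V0 subunits at the top to MiT/TFE factors at the bottom, with 1 symbol per library. Parental symbols appear at ATP6V1D, CD63 and CTSA, and TKO symbols spread from 2.84 to 13.5.

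Fold is used here as the peak caller gives it, the pileup at the summit over the local background. Among the V0 subunits, 4 of 5 had a promoter peak in each TKO library and none in a parental library. ATP6V0A1, the membrane-spanning subunit beside the proteolipid ring, had TKO folds of 11.6 in replicate 1, the highest of this group there, and 9.27 in replicate 2. ATP6V0B, a proteolipid of the ring, had 8.22 and 9.90, the latter the highest of the group in replicate 2. ATP6V0D1, which joins the ring to the central stalk, had 6.43 and 6.11. ATP6V0E1 had 6.35 and 4.81. ATP6V0C, the main proteolipid, had no peak, and the nearest summit in any library was 12586 bp away.

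Among the V1 subunits, 1 of 8 had a promoter peak in each parental library and 6 and 7 of 8 in TKO replicates 1 and 2. The exception in parental cells was ATP6V1D, a subunit of the central rotor. ATP6V1A, the catalytic subunit, had TKO folds of 8.99 and 5.22. The higher of these came from a summit 982 bp upstream of ATP6V1A, just inside the 1 kb limit, and 6 bp from the start of its neighbour NAA50. The parental replicate 1 summit 1006 bp upstream, with a fold of 4.52, and a second one in TKO replicate 2 at 1017 bp, with a fold of 9.68, lay just outside. ATP6V1C1 had 4.56 and 6.39, ATP6V1F 3.31 and 3.74, ATP6V1G1 6.17 and 5.44, and ATP6V1H 3.60 and 5.76. ATP6V1E1 had a peak in TKO replicate 2 alone, with a fold of 4.49. Of the accessory proteins, ATP6AP1 had one in the same library, with a fold of 4.50, and ATP6AP2 had none.

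The membrane proteins were led by CD63, a tetraspanin of late endosomes and lysosomes. LAMP1, the abundant glycoprotein that lines the lysosomal membrane, had TKO folds of 7.02 and 8.13 from summit pileups of 23 and 20 reads. The peaks spanned chr13:113951165-113951568 in replicate 1 and chr13:113950959-113951621 in replicate 2. Their summits lay outside the transcript, 230 and 209 bp upstream of the start, next to the row of 4 boxes printed above. NPC1, which exports cholesterol, had 7.47 and 4.95. MCOLN1, a lysosomal calcium channel, had 5.65 and 4.41 (32 and 22 reads), with summits 82 and 120 bp upstream. LAMP2 had a peak of fold 3.20 in TKO replicate 2, the 2.04th percentile of that library's folds.

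Every cathepsin gene was bound in both TKO libraries. CTSA, the protective protein of NEU1 and GLB1, had folds of 4.66 and 5.16 there and 4.56 in parental replicate 2, from 45, 45 and 31 reads. These 3 folds span little, and the parental one falls just below the TKO ones. The peak of TKO replicate 1 spanned chr20:44519699-44520060, with the summit in an annotated UTR. CTSA shares its promoter with NEURL2, whose start lay 55 to 59 bp from each of the 3 summits. CTSB had TKO folds of 4.75 and 5.50, CTSD 4.96 and 5.39, CTSL 8.91 and 6.11, and CTSZ 8.46 and 9.17. The CTSZ summits lay 871 and 749 bp inside the gene, in a coding exon. CTSD, an aspartic protease, had parental summits outside the limit, 1860 and 1898 bp downstream of its start, with folds of 5.51 and 7.07. TKO summits there at 1726 and 1877 bp had folds of 5.84 and 5.22, so the folds of the cell lines overlapped. The summit reads did not overlap, with 33 and 35 in parental libraries and 52 and 40 in TKO libraries, whose recovered depth was lower.

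The glycosidases, each the enzyme missing in a storage disease, included some of the highest and the lowest folds. HEXA, the alpha subunit of beta-hexosaminidase, had 11.7 and 10.9 in the TKO libraries from 39 and 33 reads, at the 93.6th and 92.3rd percentile of their peaks. GUSB had 9.70 and 10.9, GLB1 7.10 and 7.04, and GAA, the acid alpha-glucosidase, 6.53 and 5.05. NEU1, the lysosomal sialidase, had 2.84 and 4.22 from 27 and 21 reads, at the 1.29th and 15.9th percentile, the lowest fold in TKO replicate 1 among these genes. GLA had a fold of 6.36 in TKO replicate 1, from a summit 524 bp upstream of GLA and 227 bp from the start of HNRNPH2. No glycosidase gene had a promoter peak in parental cells.

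Of the other luminal proteins, PSAP, the precursor of the saposins, had TKO folds of 5.63 and 3.65, and TPP1, a tripeptidyl peptidase, had 5.57 and 5.24. NPC2 had 5.56 in replicate 1, from a summit 22 bp from the start of ISCA2. SQSTM1, which brings ubiquitinated cargo to autophagosomes, had a promoter peak of fold 4.45 in TKO replicate 2. A stronger SQSTM1 peak lay just outside the limit in all 4 libraries, 1337 and 1336 bp upstream in parental cells (folds of 5.19 and 6.65) and 1347 and 1358 bp upstream in TKO cells (folds of 16.8 and 18.1). The nearest protein-coding start to these summits was that of SQSTM1 itself.

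The 5 nutrient-sensing genes each had a promoter peak in TKO replicates 1 and 2, and no parental library had one at any of them. FLCN, which with FNIP1 and FNIP2 acts on the Rag GTPases RRAGC and RRAGD at the lysosome, had folds of 9.58 and 7.11. RRAGD had 7.64 and 8.52, FNIP1 7.41 and 5.54, RRAGC 4.66 and 4.48, and FNIP2 3.78 and 4.13. Of the MiT/TFE factors themselves, TFE3 had 6.72 and 5.81, TFEB 3.75 and 4.09, and MITF 4.52 in TKO replicate 1.

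Over the 33 genes bound in both, the ratio of replicate 1 to replicate 2 ranged from 0.625 to 1.72, with a median of 1.04, and 18 were higher in replicate 1. At 29 of these genes the strongest peaks of both replicates overlapped. At ATP6V1A, CTSB, GLB1 and TFE3 they did not, with summits 684, 12235, 691 and 585 bp apart, so that their ratios compare different sites. The strongest summits of these genes lay a median of 51.0 bp apart between the replicates, and 22 of 33 lay within 100 bp (66.7%, beside 65.4% of the 8949 genes bound in both). As a group, the peaks of these genes had lower folds than the promoter peaks of all bound genes in TKO cells. Among all peaks of the library, their median percentile by fold was 66.6 in replicate 1 and 45.1 in replicate 2. Their median fold was 6.39 and 5.44 in replicates 1 and 2, beside 6.78 and 6.91 over all bound genes. In the top decile of their library were 4 of 36 and 3 of 37, where 22.0% and 20.9% of all bound genes were. By annotation, 14 of the 36 summits of TKO replicate 1 lay in no protein-coding transcript, 8 in introns, 7 in coding exons and 7 in UTRs.

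ATP6V1D and CD63 allowed a comparison of signal within a called peak. The summit pileup was turned back into reads and divided by library depth (RPM). The folds of ATP6V1D were 4.48 and 4.59 in parental and 11.2 and 7.89 in TKO libraries, and those of CD63 were 8.59 and 7.95 in parental and 12.3 and 13.5 in TKO libraries, so the TKO folds of both genes lay above the parental ones. ATP6V1D had 63 and 45 summit reads in parental and 110 and 61 in TKO libraries, that is, log2 RPM of 1.25, 1.02, 2.46 and 2.23. CD63 had 27, 22, 51 and 41 reads, and log2 RPM of 0.03, -0.01, 1.35 and 1.65. In both genes the TKO values were above both parental values. The peaks were also wider in TKO cells. That of CD63, with summits in an intron or UTR, at chr12:56122948-56123120 in parental replicate 1, was 173 and 253 bp wide in parental and 819 and 914 bp wide in TKO libraries. That of ATP6V1D, between genes at chr14:67826605-67827106 in parental replicate 1, was 502 and 660 bp wide in parental and 1038 and 946 bp wide in TKO libraries. limma was fitted over the 1843 genes with a promoter peak in all 4 libraries. Its spread for each gene draws on all of these genes, so its SE and p do not measure that gene's own replicates alone. In this fit ATP6V1D was 1.21 higher in TKO on the log2 scale (SE 0.20, limma adjusted p = 2.69e-09) and CD63 1.49 higher (SE 0.25, limma adjusted p = 2.58e-09). This was the shift of nearly every gene: 99.0% of those tested were called higher in TKO and 0% lower, and the median over the 1843 genes was 1.35. Once each library was centred on its median gene, ATP6V1D stood at -0.14 (SE 0.18, limma adjusted p = 0.774) and CD63 at 0.15 (SE 0.21, limma adjusted p = 0.809). The median over both genes was 1.35 higher in TKO, with a largest SD of 0.10 between libraries, an exact two-sided permutation p of 0.333, and 0.00 once centred. The inferred fragment length behind the pileup was 140 and 151 bp in parental and 182 and 201 bp in TKO libraries, a difference that cannot be told apart from the cell line. With reads also divided by that length the difference was 0.96.

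**Figure D3:**
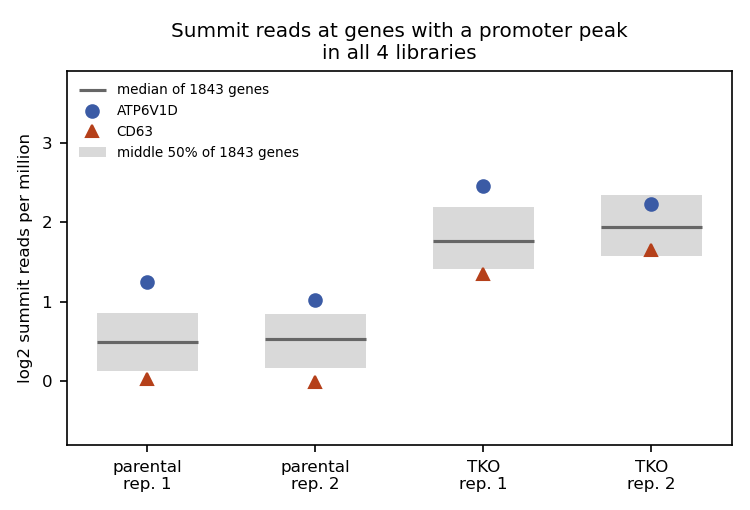
Summit reads divided by library depth (RPM) on a log2 scale (vertical axis) in the 4 libraries for ATP6V1D (circles) and CD63 (triangles), over grey bars for the middle 50% of the 1843 genes with a promoter peak in all libraries and a line at their median. Both genes moved up between parental and TKO libraries together with the grey bars.

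ATP6V1D, of the 15 V-ATPase genes among the 43 the one with a promoter peak in parental cells, shares that promoter with EIF2S1, the alpha subunit of the translation initiation factor eIF2. The summits lay 187 to 317 bp upstream of ATP6V1D and 207 to 337 bp from EIF2S1, and which gene they belong to cannot be told apart. CTSA has NEURL2 beside it. CD63 is thus the gene among the 3 bound in parental cells with no other protein-coding start within 1 kb of its summits. In TKO replicates 1 and 2, 7 of 36 and 6 of 37 summits had another gene's start within 1 kb (19.4% and 16.2%, beside 24.4% and 24.7% over all bound genes). When a peak counted only for the gene of its nearest start, an alternative added after the data were seen, 2 and 1 genes were left in parental and 33 and 35 in TKO libraries.

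E-boxes were common in the promoters of these genes and nearly all of them carried the T flank. Promoters were read from 250 bases before to 50 after the canonical start in GRCh37, 1 per gene. CACGTG occurred in 17 of 43 (39.5%), beside 8.76% of the 19507 protein-coding genes with such a promoter. TCACGTG, searched on both strands, occurred in 16 of 43 (37.2%) beside 4.81%, and the palindrome TCACGTGA in 8 of 43 (18.6%) beside 1.47%. The 16 genes were ATP6V0B, ATP6V0D1, ATP6V0E1, ATP6V1C1, ATP6V1G1, ATP6V1H, LAMP1, MCOLN1, CTSA, CTSB, CTSD, HEXA, GAA, NEU1, FNIP1 and RRAGC. CD63 held the remaining box, without a T on either side. The T-flanked box is the form by which lysosomal promoters are known, so its frequency in a list of lysosome genes is a property of the list and not of the libraries.

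What the libraries add is where peaks were called. All 16 genes with a T-flanked box had a promoter peak in both TKO libraries. None of the 16 had one in parental replicate 1, and 1 of 16, CTSA, had one in parental replicate 2. The peak could lie at any annotated start, and CTSB, CTSD and GAA were bound away from their boxes. The box was sought in the canonical promoter window alone. Of the 26 genes with no E-box in this window, 1 and 1 were bound in the parental and 19 and 20 in the TKO libraries (73.1% and 76.9%). CD63, with its unflanked box, was bound in all 4. Over all protein-coding genes, of 939 promoters with a T-flanked box, 20.2% and 20.0% were bound in the parental and 68.7% and 69.1% in the TKO libraries. Of 770 with CACGTG and no T flank, 32.7% and 33.6% were bound in the parental and 60.4% and 61.4% in the TKO libraries. The share for T-flanked promoters was thus the lower in both parental libraries and the higher in both TKO libraries. This difference, and any part of the flank in it, was not tested.

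**Figure D4:**
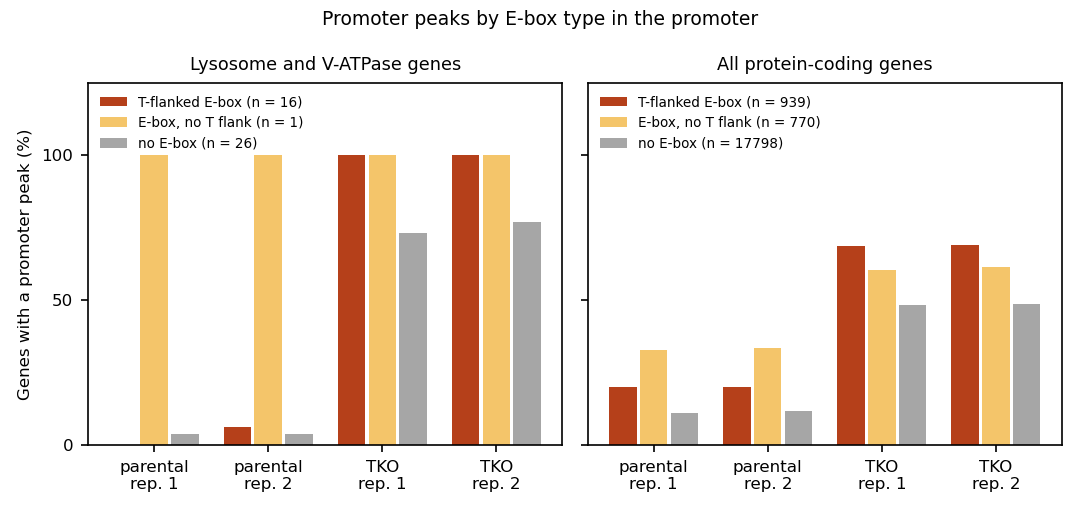
Percent of genes with a promoter peak (vertical axis) in each library, by the E-box in the canonical promoter, for the 43 lysosome and V-ATPase genes on the left and all protein-coding genes on the right. Over all genes the bars for T-flanked boxes are lower than those for boxes without a T flank in the parental libraries and higher in the TKO libraries. On the left the bar without a T flank is 1 gene, CD63.

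The summits were rarely on the boxes. An E-box lay within 50 bp of the strongest summit at 0 of 2 and 1 of 3 bound genes in the parental libraries and at 5 of 36 and 3 of 37 in the TKO libraries. The shares of these genes in TKO cells were 13.9% and 8.11%, beside 9.14% and 8.10% over all bound genes. In windows of the same width 1 kb to either side of the TKO summits the mean shares were 0% and 1.35%, beside 1.28% and 1.36% over all bound genes. Over all genes bound in the parental libraries, the shares at the summits were 21.6% and 18.5%. The difference in share between cell lines was -5.64 percentage points for these genes, less than the SD of 23.5 points between the parental libraries (exact permutation p = 1.00). The genes with a box that near were LAMP1, CTSA, HEXA, MCOLN1 and NEU1 in TKO replicate 1, and ATP6V1A, LAMP1 and CTSA in replicate 2. All 6 boxes within 50 bp in TKO replicate 1 and all 4 in replicate 2 had a T flank, where 27.0% and 27.9% of such boxes did at the promoter peaks of all genes. The boxes of the 2 libraries are largely those of the same promoters and are not independent. As nearly all E-boxes in the promoters of these genes carry the T flank, this contrast with all genes is again a property of the list.

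More of these genes had their nearest box further out, in a zone wider than that within 50 bp. The counts of the 2 zones are therefore not densities. No box within 50 bp but one at 51 to 150 bp was found at 9 of 36 genes in TKO replicate 1 (25.0%) and at 12 of 37 in replicate 2 (32.4%), beside 8.65% and 8.27% over all bound genes. Of the boxes at that distance, 14 of 16 and 18 of 19 had a T flank, against 38.9% and 42.8% at the promoter peaks of all genes. This contrast too is a property of the list. For the 16 promoters with a T-flanked box the strongest TKO summit lay a median of 116 and 110 bp from the nearest box, and 5 and 2 lay within 50 bp. Over all bound genes of that kind the medians were 155 and 147 bp, and for promoters with unflanked boxes they were 77.0 and 78.0 bp.

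**Figure D5:**
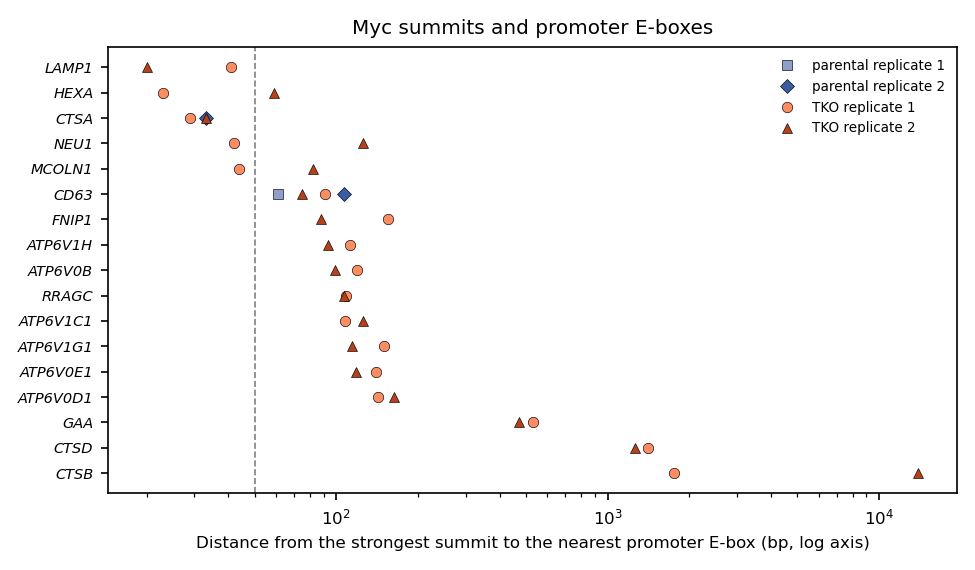
Distance from the strongest summit to the nearest E-box of the canonical promoter (horizontal log axis, bp) for the 17 genes with such a box, with 1 symbol per library and a dashed line at 50 bp. LAMP1 and CTSA lie left of the line in both TKO libraries, and GAA, CTSD and CTSB lie beyond 400 bp.

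GAA, CTSD and CTSB were bound away from their boxes. The GAA boxes printed above lie 73 and 28 bp before the start, and the GAA summits lay 502 and 443 bp after it, 530 and 471 bp from the nearest box, in an intron. CTSD and CTSB were bound near another annotated start, over 1 kb from the box of the canonical one. The 6 V-ATPase genes with a T-flanked box had summits 93 to 163 bp from it in all 12 gene-library pairs, so none of them was within 50 bp. NEU1 had its summit 42 bp from the box in TKO replicate 1 and 126 bp in replicate 2, and HEXA 23 and 59 bp.

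The rest of the pathway was read from 119 other lysosome genes, a list made with earlier results of these data known. A promoter peak was found at 15 and 24 of them in the parental libraries (12.6% and 20.2%) and at 83 and 86 in the TKO libraries (69.7% and 72.3%). Bound in both TKO libraries were 79, of which 54 had no peak in either parental library (68.4%), close to the 65.8% over all genes. In all 4 libraries were 13, and of these CCDC115, an assembly factor of the V-ATPase, was the gene with CACGTG within 50 bp of its summit in both TKO libraries. Its folds were 6.12 and 5.83 in parental and 9.42 and 14.4 in TKO libraries, so every TKO value was above every parental value.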

How the data were processed

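Myc ChIP-seq of 4 libraries (2 parental, 2 TKO) was taken as deposited peak lists. The authors aligned single reads to hg19 with Novoalign 3.08.02 and called peaks for each library over an input control with MACS2 2.1.1.20160309. Each deposited line gives an integer score, a fold enrichment (a ratio), a p-value and a q-value as −log10, and the summit offset, and the authors' lists end near a −log10 q of 2. The authors' score was not used.

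Summits were assigned to every start of GENCODE 44 (lifted to GRCh37) basic protein-coding transcripts within 1 kb, and each gene took its highest fold. Reads at the summit and the depth were recovered from fold and p (a whole number of reads matched 100% of peaks within 0.002 of −log10 p). The depth assumed an effective genome of 2700000000 bases. log2 summit reads over depth (RPM) were tested with limma 3.58.1 (trend, adjusted p below 0.05 after Benjamini-Hochberg) in R 4.3.3, and library values with exact permutation tests. Scripts were tested on simulated data. E-box means CACGTG lying whole within 50 bp of the summit.

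The members and lists were chosen with earlier results of these data known. All members are named, by role. Full values are given for those bound in all libraries or with an E-box within 50 bp in TKO replicate 1. Sequence is given for those with such an E-box in both TKO libraries. It is also given for MCOLN1, GAA, ATP6V0B and CD63, chosen after their values were seen. Other lysosome genes are named only where bound in all libraries with such an E-box in both TKO libraries. Alternatives covered thresholds, windows, start sets, scaling, peak choice, single libraries and the replicate block. Intervals cover counting error only. The sequence of 1 member is not reported here.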

Additional observations from a re-analysis of the deposited data

How the results depend on the processing

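The difference in bound genes between TKO and parental libraries, 34.0, was 29.0 with −log10 q of at least 5, 23.5 with a fold of at least 5, 31.5 within 500 bp and 32.0 within 3 kb of a start, 31.0 with the starts of every annotated transcript, and 4.50 with every list cut to the length of the shortest. The parental counts of 2 and 3 rose to 5 and 5 within 3 kb (11.6% in each, beside 13.2% and 14.4% of all genes) and to 6 and 6 with every start (14.0% in each, beside 13.1% and 14.0%). The difference was 33.5 to 34.5 with any 1 library left out. The E-box share difference, -5.64 points, ranged from -22.3 to 11.0 with 1 library left out, and was 11.0 without parental replicate 2, since it rests on 2 or 3 parental peaks. The log2 difference in summit reads, 1.35, was 0.96 with extension length in the scaling, 0.00 when centred on all genes tested, and 1.09 to 1.37 with 1 library left out, the lowest without parental replicate 1, where CTSA joined. limma called 2 members. It called 4 within 3 kb (CTSD and SQSTM1 joined), 2 to 3 with 1 library left out, and 0 when centred, with 0 at an unadjusted p under 0.05, where 18 of all genes tested were higher and 12 lower. The replicate numbers are shared only as numbers: the correlation of replicate deviations between cell lines over 1843 genes was 0.0722. With the replicate block the values were 34.0, -5.64, 1.35 and 2, so the block changed no call. A site below the caller's threshold gives no peak, in deeper and shallower libraries alike.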
